A study of Rattus norvegicus with 3 samples.

Results

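The 9 genes described here, Mdm2, Ccng1, Gadd45a, Sesn1, Perp, Trp53inp1, Phlda3, Zmat3 and Plk2, are transcriptional targets of the tumor suppressor p53, and they were chosen by name among the 13301 genes that the probes of a whole rat genome array could be matched to. A named probe was found for 8 of the 9 genes, 10 probes in all, and every probe is shown. Sesn1 had no named probe and was not analysed here. Perp had a probe that was not well above background on any array, so 7 genes gave ratios. The rat symbol of Trp53inp1 is Tp53inp1, which is used below.

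p53 is a transcription factor that is kept at a low level by the ubiquitin ligase Mdm2 and is stabilized when DNA is damaged, oncogenes are active or cells are stressed. It then binds pairs of short half-sites in the DNA and switches on genes that halt the cell cycle, repair DNA, handle oxidants, limit growth signals or start apoptosis, and also Mdm2 itself, which closes a negative feedback loop. Many sarcomas lose p53 function, and Mdm2 is a known oncogene of bone and soft tissue sarcomas.

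RNA of 3 cell populations of the rat strain F344 was labeled with Cy3 and hybridized to 1 array each. COS1NR is an osteosarcoma cell line and MFH1NR a malignant fibrous histiocytoma cell line, both derived from tumors induced by 4-HAQO, and mesenchymal stem cells (MSCs) were isolated from femur bone marrow and cultured on plastic. The methods describe both lines as carrying p53 mutations, which array intensities do not read, and they name no sorting of the MSCs. No treatment of the cultures before RNA isolation is named, and the ages of the animals were not given in the sources used here. With 1 array per cell type there were no replicates, so every value below is a description without a test, and the number of arrays limits the precision.

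Between 56.6% and 59.7% of the spots that are not controls were well above background, and no spot was saturated. The processed intensity of a spot is not scaled between arrays, with a 75th percentile of 589 for MSCs, 774 for COS1NR and 994 for MFH1NR. Each log2 ratio below was therefore taken between intensities that had been divided by the 75th percentile of their own array. Replicate spots of a probe gave an SD of about 0.08 for a single-spot log2 ratio to MSCs, and a pair of probes of the same gene differed by a median of 0.28 in log2 in COS1NR and 0.31 in MFH1NR. The sarcoma arrays lay together on 1 slide that was scanned once, while MSCs were on a separate one, so in comparisons with MSCs the cell type cannot be told apart from the slide, and both of these comparisons use the same MSC array. The methods also give MSCs a medium with more fetal bovine serum than the lines, which cannot be told apart from the cell type either.

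The surface markers of MSCs in the list, among them Cd44, Thy1 (CD90), Nt5e (CD73) and Eng (CD105), were well above background in MSCs for 6 of 6 genes, in 4 of 6 for COS1NR and 5 of 6 for MFH1NR. Sp7 (osterix), a defining transcription factor of osteoblasts, was well above background in MFH1NR but neither in COS1NR nor in MSCs, and the other 5 of the 6 measured osteoblast markers were so on all 3 arrays. All 15 macrophage markers of the list were well above background in MSCs, against 9 in COS1NR and 8 in MFH1NR. Their summed intensity was 198 times the 75th percentile in MSCs, 13.04 times in COS1NR and 5.36 times in MFH1NR, and in both sarcoma lines Lyz2, C1qa, Itgam, Mrc1 and Ptprc failed to be well above background. In either line all 8 measured proliferation genes exceeded MSCs by 2-fold or more, and their median log2 ratio was 2.24 for COS1NR and 2.33 for MFH1NR. Summed in the same way, osteoclast markers had 71.5 in MSCs against 2.65 in COS1NR and 7.40 in MFH1NR. Stromal markers had 1407 against 204 and 352, and adipocyte markers 1.65 against 37.7 and 0.0510. In MFH1NR none of the 4 adipocyte markers was well above background, so their sum there is no measured level. The part that these cell types, states of differentiation or cycling cells have in the ratios of the p53 target genes was not tested, and in bulk RNA fewer cells of a type and less RNA per cell cannot be told apart.

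Of the 7 measurable target genes, Ccng1 and Phlda3 were at least 2-fold lower in both sarcoma lines than in MSCs, and with this scaling none was at least 2-fold higher in either. In COS1NR these were 2 of 7 genes, where 22.3% of the 10010 genes used were at least 2-fold lower and 21.7% at least 2-fold higher. In MFH1NR, Plk2 was also lower, giving 3 of 7 genes, against 23.2% of all genes lower and 20.8% higher. Both lines were at least 2-fold lower for 28.6% of the target genes and for 14.6% of all genes, which for 7 genes is a difference of about 1 gene. The median log2 ratio of the target genes was -0.60 in COS1NR and -0.63 in MFH1NR, beside 0.11 and 0.01 over all genes. In MFH1NR this median turned to 0.13 without scaling and to -0.10 with scaling on spike-in probes, where the median of all genes moved to 0.77 and 0.53. Gadd45a passed 2-fold higher in COS1NR without scaling and with median scaling, at 1.24 and 1.01, and Tp53inp1 did so in MFH1NR without scaling and with median and spike-in scaling, at 1.66, 1.13 and 1.43. Without any scaling between arrays, the lower genes made up 34.7% instead of 50.7% of all genes at least 2-fold apart in COS1NR, and 27.1% instead of 52.7% in MFH1NR. With scaling on spike-in probes these shares were 62.7% and 33.5%.

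**Figure D1:**
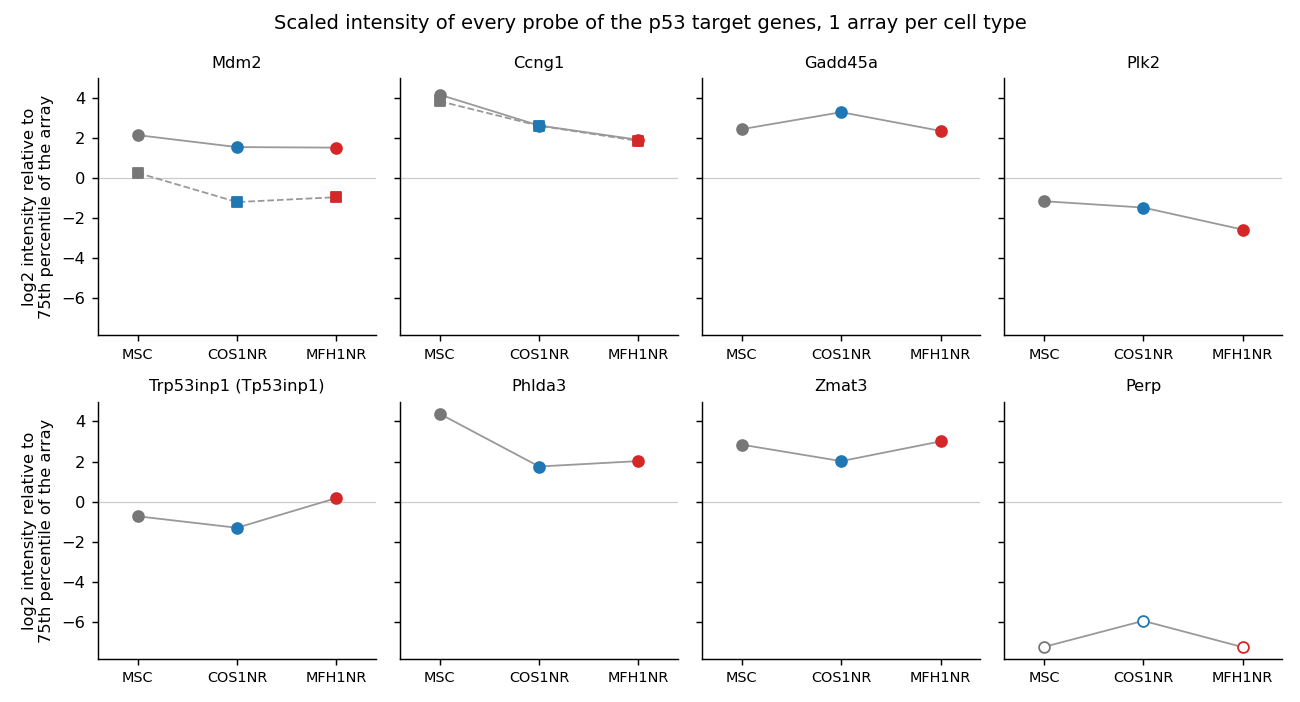
Scaled log2 intensity of each probe of the p53 target genes on the MSC, COS1NR and MFH1NR arrays, relative to the 75th percentile of the array (grey line at 0). Circles and solid lines are the probe of highest mean intensity, squares and dashed lines a further probe, and open symbols are not well above background. Ccng1, by both probes, and Phlda3 lie lower in both sarcoma lines than in MSCs, Tp53inp1 is highest in MFH1NR, and Perp is not well above background on any array.

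Mdm2, the ubiquitin ligase that targets p53 for degradation, read 2590 in MSCs, 2248 in COS1NR and 2835 in MFH1NR by its brighter probe. After scaling the log2 ratios to MSCs were -0.60 (COS1NR) and -0.63 (MFH1NR). The dimmer probe read 702, 335 and 510, with log2 ratios of -1.46 and -1.21. Both probes placed Mdm2 lower in the sarcomas with the 75th percentile scaling, but only the dimmer one by more than 2-fold, and without scaling the brighter probe gave a log2 ratio of 0.13 in MFH1NR. In no setting that was run did Mdm2 exceed MSCs in either line by more than this. Between the lines the log2 ratio of MFH1NR to COS1NR was -0.03 and 0.24 by these probes, and with spike-in scaling the brighter probe gave 0.76.

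Ccng1 (cyclin G1), which recruits a phosphatase to Mdm2 and so takes part in the same feedback loop, read 10495 in MSCs, 4744 in COS1NR and 3715 in MFH1NR. Its log2 ratio to MSCs was -1.54 in COS1NR and -2.25 in MFH1NR, a 2.91-fold and a 4.77-fold lower level. The second probe read 8370, 4698 and 3574, with log2 ratios of -1.23 and -1.98. Of Mdm2 and Ccng1, the target genes with more than 1 probe, Ccng1 alone was at least 2-fold lower in both lines by each probe. The ratio in COS1NR ranked at the percentile 16.2 of all genes and that in MFH1NR at 12.4, so a sizeable share of genes had lower ratios.

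Phlda3, a pleckstrin homology domain protein that competes with Akt for membrane lipids and so limits growth signals, read 12303 in MSCs, 2607 in COS1NR and 4039 in MFH1NR. The log2 ratios of -2.63 and -2.36, or 6.20-fold and 5.14-fold lower levels, were the largest of the 7 genes in both comparisons with MSCs at this scaling. They ranked at the percentiles 9.58 and 12.1 of all genes. The lines differed from each other by a log2 ratio of only 0.27 at this gene, which turned to 1.06 with spike-in scaling.

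Cdkn1a (p21), the p53 target that blocks cyclin-dependent kinases, belongs to the other pathway genes described below and had log2 ratios of -2.98 and -3.21 to MSCs, and of -2.10 and -1.95 by its dimmer probe. Of 12 other settings, those that can move a ratio were 7 for Ccng1, 5 for Phlda3 and 8 for Cdkn1a, and under each of them these genes were at least 2-fold lower in both lines.

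The promoter windows of Ccng1 and Phlda3, the genes lower in both lines by at least 2-fold, and of Gadd45a, which was not, are shown because they differ in p53 half-sites. Each is the 250 bases before the annotated start from RefSeq on the assembly GRCr8, written 5′ to 3′ on the strand of the gene. Capitals mark an exact match to the 10-base p53 half-site consensus and, where a neighbor with at most 1 mismatch in the pair lies within 13 bases, that neighbor too. The consensus equals its own reverse complement, so both strands were covered. For Ccng1 (chr10:25684877-25685126, minus strand), Gadd45a (chr4:97486800-97487049, minus strand) and Phlda3 (chr13:49744753-49745002, plus strand) the sequences were:
Ccng1: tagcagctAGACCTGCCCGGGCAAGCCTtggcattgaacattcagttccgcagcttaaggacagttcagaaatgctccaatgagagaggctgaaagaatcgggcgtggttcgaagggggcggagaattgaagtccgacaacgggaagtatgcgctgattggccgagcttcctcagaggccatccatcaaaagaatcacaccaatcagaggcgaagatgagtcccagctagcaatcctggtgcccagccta
Gadd45a: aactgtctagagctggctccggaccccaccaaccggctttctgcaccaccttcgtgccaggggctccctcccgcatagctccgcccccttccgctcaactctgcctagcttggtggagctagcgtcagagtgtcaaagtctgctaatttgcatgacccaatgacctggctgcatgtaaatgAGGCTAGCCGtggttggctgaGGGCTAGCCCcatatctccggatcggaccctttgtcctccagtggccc
Phlda3: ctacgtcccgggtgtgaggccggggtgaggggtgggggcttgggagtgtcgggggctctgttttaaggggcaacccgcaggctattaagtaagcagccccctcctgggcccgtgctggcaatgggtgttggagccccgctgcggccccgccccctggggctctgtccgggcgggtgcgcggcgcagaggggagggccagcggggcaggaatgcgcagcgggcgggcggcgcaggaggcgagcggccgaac

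Ccng1 held a pair of half-sites without a spacer that began 242 bases before the start, written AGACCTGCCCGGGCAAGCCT, of which the second was exact. Gadd45a held a pair with a spacer of 11 bases that began 69 bases before the start, the second being exact. Phlda3 held no exact half-site in its window. Of the 7 target genes with a window in the table, 3 had an exact half-site (Ccng1, Gadd45a and Sesn1) and 2 a pair (Ccng1 and Gadd45a). Over 33469 windows of the same length, 6.64% had an exact half-site and 0.427% a pair. The genes with a pair thus included one that was lower in both lines and one, Gadd45a, that was not at least 2-fold apart in either line. The window of Cdkn1a, also lower in both lines, held 1 exact half-site and 2 pairs. A match only describes these letters, and p53 sites outside the window, such as the well-known ones in the first intron of Mdm2, were not looked at.

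Gadd45a, a stress protein that halts cells before mitosis and takes part in DNA repair, read 3183 in MSCs, 7522 in COS1NR and 5060 in MFH1NR. The log2 ratio was 0.85 in COS1NR, a 1.80-fold higher level, and -0.09 in MFH1NR, where it turned to 0.67 without scaling. MSCs and MFH1NR were closer at this gene than a typical pair of probes of one gene, while COS1NR was the highest. It was the only one of the 7 genes with a positive log2 ratio in COS1NR at this scaling.

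Plk2, a polo-like kinase that acts in centriole duplication and the S phase checkpoint, read 263 in MSCs, 277 in COS1NR and 166 in MFH1NR. Its log2 ratio was -0.32 in COS1NR, close to the difference between probes, and -1.42 in MFH1NR, a 2.67-fold lower level. Without scaling these became 0.08 and -0.66, and with spike-in scaling -0.59 and -0.90. MFH1NR was thus the lowest of the 3 arrays in intensity and in each scaling, and the size of its difference depended on the scaling.

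Tp53inp1, a nuclear and autophagy protein that helps p53 to switch on death genes, read 354 in MSCs, 313 in COS1NR and 1124 in MFH1NR. The log2 ratio to MSCs was -0.57 in COS1NR and 0.91 in MFH1NR, so the lines lay on opposite sides of MSCs. Between the lines, which were scanned on the same slide, MFH1NR was higher by a log2 ratio of 1.48, or 2.80-fold. That ratio ranked at the percentile 90.3 of all genes and stayed above 2-fold in the 5 other settings that move it, between 1.31 and 2.27.

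Zmat3, a zinc finger RNA-binding protein that acts on the stability and splicing of transcripts, read 4225 in MSCs, 3141 in COS1NR and 7993 in MFH1NR. The log2 ratio was -0.82 in COS1NR and 0.16 in MFH1NR, and MFH1NR exceeded COS1NR by 0.99, just under 2-fold. It passed 2-fold in the 5 other settings that move it, up to 1.78 with spike-in scaling. Zmat3 had the same order of the 3 arrays as Tp53inp1, with COS1NR lowest and MFH1NR highest. With the 75th percentile scaling its step from MSCs to MFH1NR was smaller than the difference between probes of a gene, but it was 0.92 without scaling and 0.68 with spike-in scaling.

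Perp, a membrane protein of desmosomes and a mediator of p53-dependent apoptosis, read 3.85 in MSCs, 12.5 in COS1NR and 6.45 in MFH1NR. The lowest intensities that were well above background on these arrays were 17.9, 29.4 and 30.1, so no fold is given. The signal sets only an upper bound for a gene that is known mainly from epithelia.

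Between the sarcoma lines, 1 of 7 target genes was lower by 2-fold or more in MFH1NR, Plk2 with a log2 ratio of -1.10, and 1 was at least 2-fold higher, Tp53inp1. Over all genes 16.0% were lower and 13.9% higher by as much. The median log2 ratio of the target genes was -0.03, beside -0.11 over all genes. Ccng1, at -0.71 and -0.76 by its probes, and Gadd45a, at -0.93, were lower in MFH1NR by less than 2-fold, while Zmat3 was higher, but with spike-in scaling Ccng1 turned to 0.08. Plk2 passed 2-fold in 2 of the 5 other settings that move it and had -0.74 without scaling, -0.31 with spike-in scaling and -0.88 with the normexp background correction, which left 0 genes lower. With that correction 11.9% of all genes were lower. With spike-in scaling 3 genes were at least 2-fold higher in MFH1NR, Tp53inp1, Zmat3 and Phlda3, beside 34.9% of all genes. Of all genes at least 2-fold apart between the lines, 53.4% were lower in MFH1NR, 35.2% without scaling and 19.5% with spike-in scaling.

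**Figure D2:**
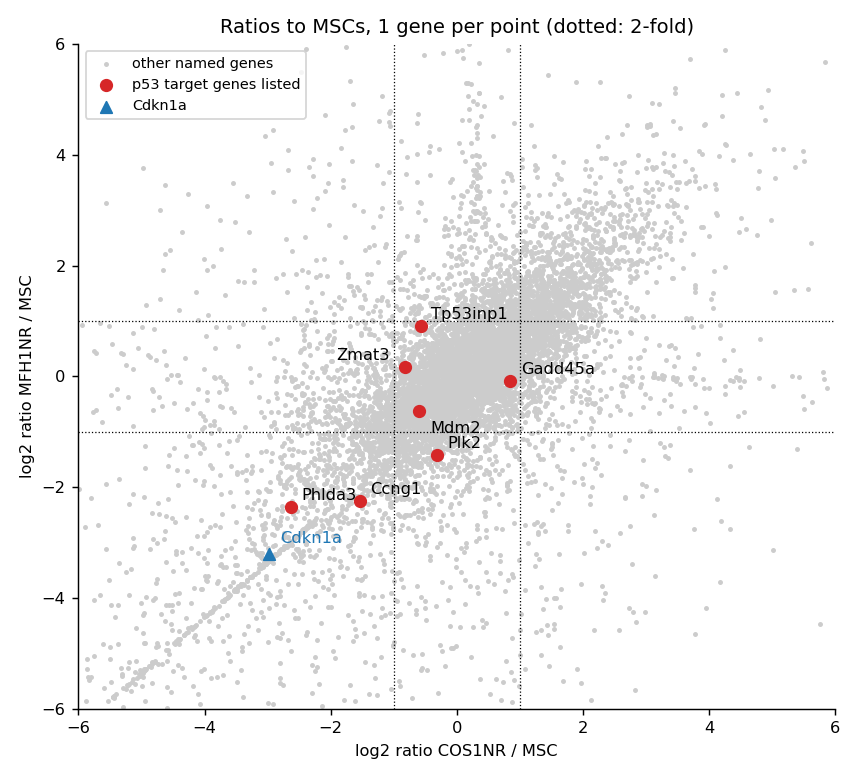
Log2 ratio of MFH1NR to MSC against that of COS1NR to MSC for 10010 genes, 1 array per cell type, with 456 genes outside the axes. Both axes share the MSC array. Red points are the 7 measurable p53 target genes, the blue triangle is Cdkn1a, and dotted lines mark 2-fold. Ccng1, Phlda3 and Cdkn1a lie in the lower left corner beyond 2-fold in both lines, and the other target genes lie nearer the middle of the cloud.

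For each target gene, the gene with the most similar pair of log2 ratios was sought over the 3 arrays among 10003 others. Phlda3 was nearest to Plk3, a kinase of the polo-like family and itself a p53 target in the lists. The distance was 0.04 in log2 by the brighter Plk3 probe, with 17 genes within 0.29. The dimmer Plk3 probe, at -2.90 and -2.90, lay outside this radius of Phlda3, which had -2.63 and -2.36. Ccng1 was nearest to Creld1 at 0.06, with 33 genes within that radius, and Tp53inp1 to Gpsm1 at 0.05, with 47. Mdm2 (Tnfrsf1b), Gadd45a (Bnip1), Zmat3 (Shox2) and Plk2 (Spire2) had between 79 and 306 genes within it. Fewer genes thus lay near Phlda3 and Ccng1 than near Mdm2. Such a count depends on where a gene lies among the ratios of all genes, so it is no separate result. A likeness over 3 arrays says little.

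The pathway was widened to 77 further genes in 7 lists by role, of which 63 had a named probe and 61 were used. In COS1NR 15 of the 61 genes (24.6%) were at least 2-fold lower than in MSCs and 12 (19.7%) higher, with a median log2 ratio of -0.14. In MFH1NR 21 (34.4%) were lower and 13 (21.3%) higher, with a median of -0.54, beside 23.2% and 20.8% of all genes. Without scaling these counts in MFH1NR became 16 lower and 22 higher, beside 15.4% and 41.6% of all genes. With spike-in scaling they became 16 lower and 19 higher, beside 17.2% and 34.2% of all genes. With the 75th percentile scaling, shares of higher genes lay near those of all genes, and so did the share of lower genes in COS1NR. Without scaling, both medians turned positive, to 0.25 and 0.22, while those of all genes were higher, at 0.51 and 0.77.

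Among regulators and relatives of p53, 5 of 9 genes were at least 2-fold higher in COS1NR by their measured signals and none lower, and in MFH1NR 4 were higher and 1 lower, beside 21.7% and 20.8% of all genes higher and 22.3% and 23.2% lower. The 5 include Atm, which its bound below does not place beyond 2-fold in COS1NR. Chek2, a kinase that activates p53 after DNA damage, had log2 ratios of 3.08 and 2.11, and Cdkn2a, whose locus encodes the Mdm2 inhibitor Arf as well as p16, had 1.24 and 3.82. Rchy1, another ubiquitin ligase for p53, had 1.17 and 1.52. Atm, a kinase upstream of p53, was dim in MSCs (not well above background). By its brighter probe its level was thus higher by at least 1.69-fold in COS1NR and by at least 3.37-fold in MFH1NR. The dimmer probe was well above background in MFH1NR alone, where it gave a bound of at least 2.10-fold. The acetyltransferase Kat5 was lower at -0.92 and -1.31, and Mdm4, the partner of Mdm2 in restraining p53, had -0.21 and -0.996.

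Of the arrest and checkpoint targets, 3 of 4 genes were at least 2-fold lower in both lines, beside 14.6% of all genes. Besides Cdkn1a these were Btg2, an antiproliferative factor, at -1.45 and -5.15, and Plk3 at -2.65 and -2.40. The fourth, Gtse1, a protein of G2 and S phase cells that restrains p53, was higher at 3.31 and 3.71. Of the apoptosis targets 10 of 14 lay within 2-fold in each line, as did 56.0% of all genes in COS1NR and 56.0% in MFH1NR. The death receptor Fas was lower in both, at -1.23 and -1.98, while Bax, which opens mitochondria, had -0.03 and -0.82, and Bbc3 (Puma) had 0.20 and -1.39.

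Repair and nucleotide targets had no gene at least 2-fold lower, and 3 of 6 in COS1NR and 4 of 6 in MFH1NR were higher, beside 21.7% and 20.8% of all genes. These included Rad51c, a recombination protein, at 3.21 and 3.38 and the replication clamp Pcna, which is also on the proliferation list, at 1.40 and 1.63. Polk, one of the 4 in MFH1NR, was likewise dim in MSCs, with a bound of at least 1.53-fold higher. Metabolism, redox and autophagy targets were within 2-fold in 11 of 12 and 10 of 12 genes, beside 56.0% and 56.0% of all genes, with Sesn2, a relative of Sesn1, at -0.65 and -0.54.

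Secreted and matrix targets were at least 2-fold lower in 4 of 5 genes in COS1NR and 5 of 5 in MFH1NR, beside 22.3% and 23.2% of all genes. Thbs1 (thrombospondin 1), a matricellular protein, had -3.48 and -3.55. Igfbp3, which binds insulin-like growth factors, had -3.76 in COS1NR, and in MFH1NR, where it was not well above background, the level was at least 81.6-fold lower. Tgfa, a ligand of the EGF receptor, was the exception at 1.39 in COS1NR, yet in MFH1NR its level was at least 118-fold lower. Among 11 other frequently cited targets, 4 were lower and 1 higher in COS1NR and 8 lower and 2 higher in MFH1NR. Of all genes 22.3% and 23.2% were lower and 21.7% and 20.8% higher. The highest of these targets was Psrc1, a spindle protein, at 5.51 and 3.90.

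**Figure D3:**
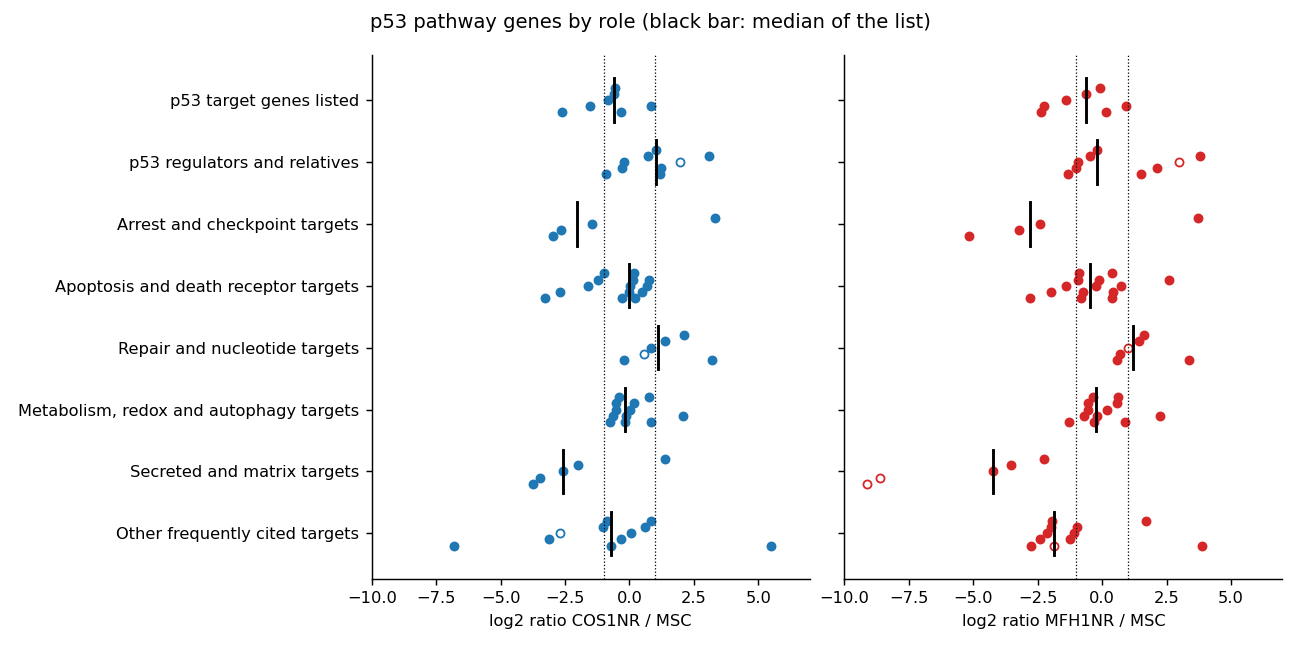
Log2 ratio to MSC of p53 pathway genes by role, COS1NR on the left and MFH1NR on the right, 1 point per gene and 1 array per cell type. Black bars are list medians of the measured ratios, dotted lines mark 2-fold, and open points were not well above background on one of the compared arrays, so that their position is no bound. The arrest and the secreted lists lie lowest, and the median of the repair list lies above 0 in both lines.

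Paralogs of the target genes were compared on the same arrays, 16 of 21 listed being used, 3 of which are also on the lists above (Mdm4, Sesn2 and Plk3). In COS1NR 9 were at least 2-fold lower and 3 higher, and in MFH1NR 10 were lower and 2 higher. Over all genes 22.3% and 23.2% were lower and 21.7% and 20.8% higher. By measured signals 9 paralogs (56.2%) were lower in both lines, beside 14.6% of all genes. They include Plk5, which was not well above background in the sarcomas and is not placed beyond 2-fold by its bounds of at most 1.26-fold. With signals raised to the background limit, 8 paralogs were lower in COS1NR and 9 in MFH1NR, beside 19.4% and 20.6% of all genes. The paralogs thus did not follow their target genes in every family.

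Gadd45b and Gadd45g, which share stress functions with Gadd45a, had log2 ratios of -3.27 and -1.56 in COS1NR, where Gadd45a had 0.85. In MFH1NR they had -3.14 and -3.33 beside -0.09. Ccng2 at -1.66 and -1.17 was lower in both lines, as was Ccng1. Plk1, the mitotic kinase of the polo-like family, was higher at 2.43 and 2.72, while Plk2 had -0.32 and -1.42. Phlda1 had -1.42 and -2.62, and Phlda2, an imprinted growth regulator, was higher in MFH1NR at 4.24. Phlda2 read 19.9 in MSCs, near the lowest signal well above background there (17.9), and was not well above background in COS1NR. Of the 4-span membrane proteins related to Perp, Emp1, Emp3 and Pmp22 were lower in both lines, between -1.51 and -2.73, while Emp2 had 1.28 and -2.84. Sesn2 and Sesn3 stayed within 2-fold in both lines.

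**Figure D4:**
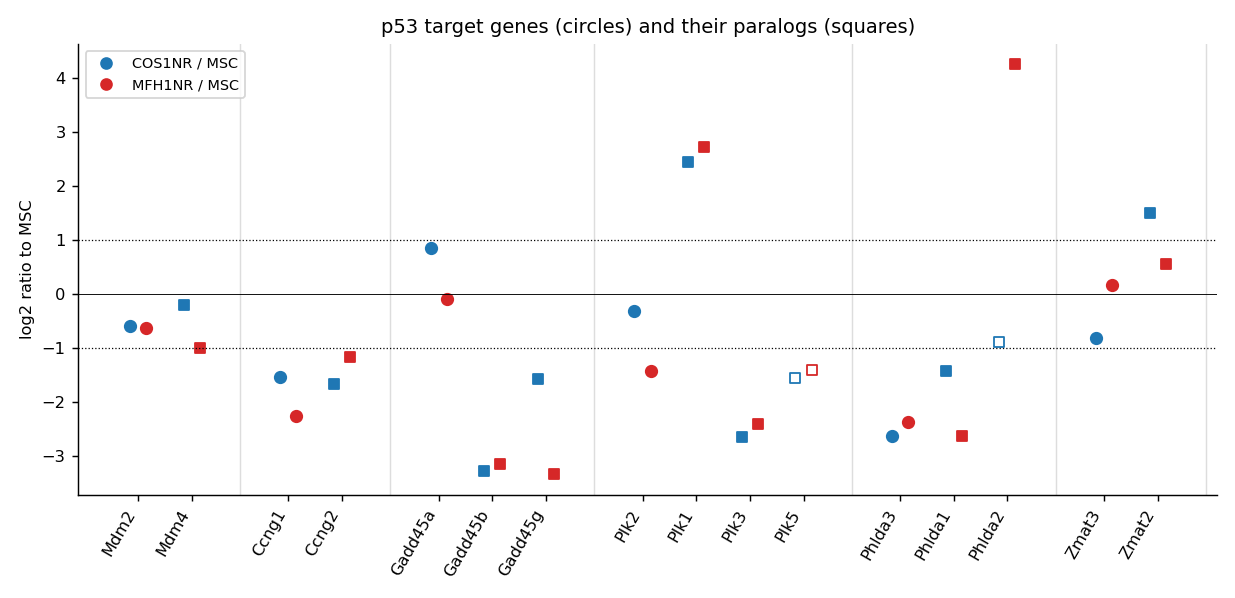
Log2 ratio to MSC of 6 p53 target genes (circles) and their paralogs (squares), COS1NR in blue and MFH1NR in red, 1 array per cell type. Open symbols were not well above background on one of the compared arrays, and dotted lines mark 2-fold. Gadd45a lies near or above 0 while Gadd45b and Gadd45g lie beyond 2-fold lower in both lines, and Plk1 lies on the other side of 0 from Plk2 and Plk3.

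**Figure D5:**
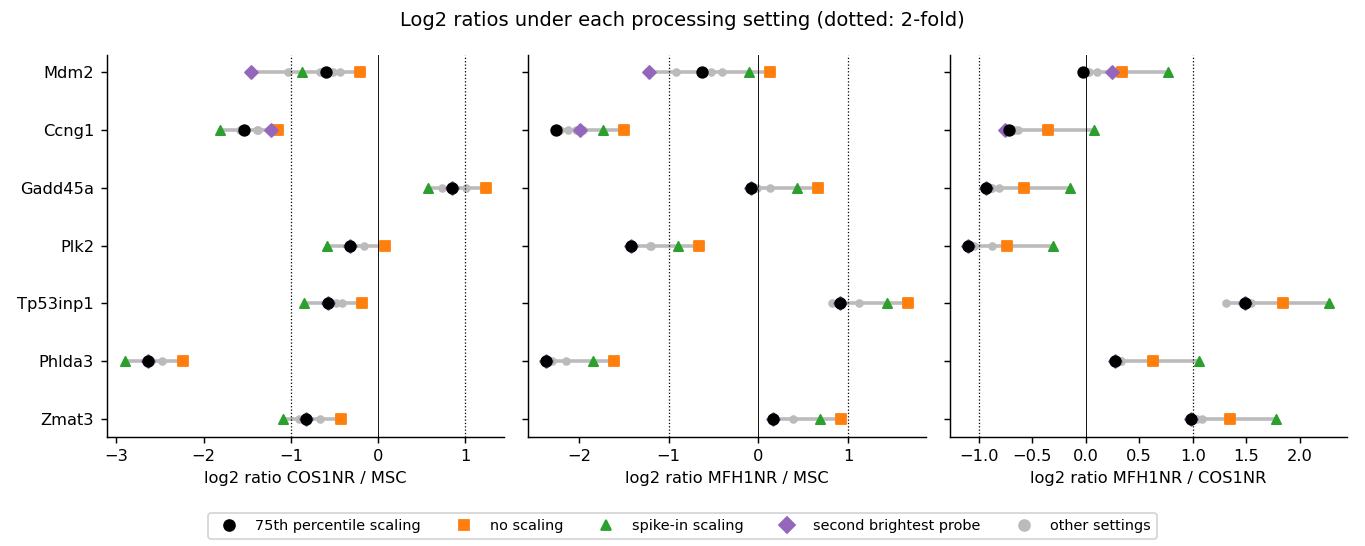
Log2 ratios of the 7 measurable p53 target genes under the 75th percentile scaling (black) and 12 other settings (colored and grey), several of which cannot move a gene with 1 probe, for COS1NR to MSC, MFH1NR to MSC and MFH1NR to COS1NR. Grey bars span all settings, the vertical line is 0 and dotted lines mark 2-fold. Ccng1 and Phlda3 stay beyond 2-fold lower in both comparisons with MSC, and Tp53inp1 stays beyond 2-fold higher in MFH1NR than in COS1NR.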

How the data were processed

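Per the file headers, the authors made the processed intensity of each spot with Agilent Feature Extraction 10.5.1.1, background-subtracted and detrended within the array, with a surrogate at or below background and no scaling between arrays. The processing notes of the labels name version 9.1, and labels and methods name different RNA isolation and labeling kits. The deposited value table of the series held the same intensities.

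Control spots and spots marked as outliers were left out, spots of a probe were averaged on the log2 scale, and intensities were divided by the 75th percentile of their array. Probes were named through RefSeq accessions (16745 of 40816 probes). The probe of highest mean log2 intensity stood for a gene, and genes well above background on at least 1 of 3 arrays were used (10010 of 13301). A bound sets the bright signal against the dim one or the lowest signal well above background, whichever is higher. Counts are of genes that differed by 2-fold or more, without a test. All probes of the 9 target genes and genes of fixed lists are named; the target genes and lists were chosen with earlier results of these data known. Of the lists, 2 genes are not reported here. Alternatives were no scaling, median, quantile and spike-in scaling (7 probes), a floor at the highest background limit, the series table, other probe choices, other filters, a 3-fold threshold and outlier spots kept. A normexp correction (offset 50) on the median spot signal, and the floor for the lists of other pathway genes and paralogs, were chosen after seeing the data. The counting steps were tested on simulated data. Python 3.11.15, numpy 2.4.6, pandas 2.3.3, scipy 1.17.1, matplotlib 3.10.9, R 4.3.3 and limma 3.58.1 were used.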

Additional observations from a re-analysis of the deposited data

Results flagged for a closer look

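Tp53inp1 lay on opposite sides of MSCs in the sarcoma lines, at log2 ratios of -0.57 (COS1NR) and 0.91 (MFH1NR). Among the other pathway genes and paralogs, Casp1 (-3.29 in COS1NR and 2.61 in MFH1NR) and Pltp (-0.41 and 0.89) ran the same way, and Emp2 (1.28 and -2.84), Rap2b (0.61 and -0.98) and Tp63 (1.02 and -0.93) the reverse way. They are given here because both ratios exceeded the median difference between a pair of probes of one gene and had opposite signs, in genes well above background on all 3 arrays. Tgfa, which was not well above background in MFH1NR, had 1.39 in COS1NR, while its bound in MFH1NR was at least 118-fold lower. With 1 array per cell type the difference between the lines was not tested. Casp1, the protease of the inflammasome, read 792 in MSCs, 106 in COS1NR and 8154 in MFH1NR on its only probe. The further probe of Emp2 gave 1.40 and -2.03 and so the same directions, and that of Tp63 gave 1.12 in COS1NR and was not well above background in MFH1NR.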

How the results depend on the processing

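The values of 207 of 261 counts and medians stayed close under the other settings (counts within 1.5 times, medians within the spread between probes), and no ratio beyond 2-fold of the 7 target genes and Cdkn1a changed its sign; single ratios of other genes were not followed. The median over all genes was 0.11 in COS1NR, 0.01 in MFH1NR and -0.11 between the lines, and it became 0.51, 0.77 and 0.25 without scaling, -0.16, 0.53 and 0.68 with spike-in scaling and 0.27, 0.23 and -0.06 with median scaling. The shifts below go with these.

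Without scaling, the median of the target genes became -0.20 in COS1NR, 0.13 in MFH1NR and 0.33 between the lines, with 1, 1 and 2 genes higher and 0 lower between the lines. The other pathway genes then had 20 higher and a median of 0.25 in COS1NR, 22 higher and 0.22 in MFH1NR, and 11 higher and 0.14 between the lines. The paralogs had medians of -1.07, -0.80 and 0.23, with 2 lower between the lines. At this setting 32.9%, 41.6% and 20.9% of all genes were higher in these comparisons, and 11.3% were lower between the lines. With spike-in scaling, the target genes had 1 higher and a median of -0.10 in MFH1NR, and 3 higher, 0 lower and 0.76 between the lines. The other pathway genes had a median of -0.019 in MFH1NR, and 18 higher, 5 lower and 0.57 between the lines. The paralogs had a median of -1.03 in MFH1NR, and 4 higher, 1 lower and 0.66 between the lines. Of all genes 34.2% were then higher in MFH1NR, and 34.9% were higher and 8.43% lower between the lines. With median scaling 1 target gene was higher in COS1NR, 1 in MFH1NR and 2 between the lines, beside 25.9%, 25.9% and 14.7% of all genes.

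With quantile normalization 2 target genes were higher between the lines, beside 14.8% of all genes. The median of the paralogs in MFH1NR was then -1.24. With normexp 2 target genes were higher and 0 lower between the lines, beside 9.15% and 11.9% of all genes. With the second brightest probe the median of the target genes was -1.21 in MFH1NR and 0.24 between the lines. Without the filter on dim probes Perp entered, which was not well above background on any array. This gave 1 higher in COS1NR, and 2 lower and a median of -0.37 between the lines. Of all genes 18.6% were then higher in COS1NR and 13.9% lower between the lines. Where all 3 arrays had to be well above background, the paralogs had 1 higher and a median of -2.05 in MFH1NR. Between the lines they had 0 higher and -0.33, and 18.9% and 9.69% of all genes were higher in these comparisons. With the floor, chosen after seeing the data, the median of the paralogs in COS1NR was -1.04. The other pathway genes then had 11 and 12 higher in place of 12 and 13, beside 19.4% and 18.5% of all genes. With a 3-fold threshold, 1 target gene was lower in COS1NR and 0 were higher and 0 lower between the lines. At this threshold 7 other pathway genes were higher in COS1NR. Of the paralogs 1 was higher and 5 lower in COS1NR and 2 lower between the lines. Of all genes 15.9% were lower and 11.1% higher in COS1NR, and 9.69% lower and 9.01% higher between the lines. The cause was not tested for settings other than the fold threshold, the filters and the floor, whose construction gives it.

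The planned normexp correction on the mean spot signal was not run, because the files used here hold the median spot signal. No paired analysis was possible because each cell type had 1 array. The array noise known here is that of replicate spots and of several probes of a gene, and it covers neither cultures nor labeling.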
